A study of Rattus norvegicus with 16 samples.

Results

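A set of 283 transcripts was abundant in the synovial tissue of saline-injected knees of vehicle-treated rats and at least 8-fold lower in the mean of every other group. They were picked out of the 26956 transcripts that passed a filter on low counts, from 46726 in all, by 3 conditions on CPM, the counts of a transcript per 1e+06 counts of its library after scaling between libraries. The mean of contralateral vehicle knees had to be at least 100 CPM, the mean of each of the other 3 groups at most 1/8 of it, and the lowest contralateral vehicle library had to exceed the highest of the other 12 libraries. The set was thus chosen by the levels in contralateral vehicle knees against the other groups. These are described below, and no test of them is read as a result.

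The study compared knees injected with 2 mg of monoiodoacetate (MIA), a metabolic poison used to model osteoarthritis, in 50 µl of saline with contralateral knees injected with 50 µl of saline alone, and collected the synovial membranes 4 weeks later. Rats carried a treatment of vehicle or inhibitor, the latter directed, by the series title, at fatty acid binding protein 5. For the inhibitor no dose, and for the animals no strain, sex or age, is stated in the labels. The 4 groups of 4 libraries were contralateral vehicle (saline, vehicle), MIA vehicle (MIA, vehicle), contralateral inhibitor (saline, inhibitor) and MIA inhibitor (MIA, inhibitor). All were bulk total RNA of rat synovial tissue, and every saline knee belonged to a rat whose opposite knee had received MIA, so none came from an uninjected animal. Whether each library of a group is from its own rat is not stated in the labels, and p-values therefore measure the spread between libraries, which may be technical.

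The synovium is the thin membrane that lines a joint, made of a lining layer of fibroblasts and macrophages over a looser layer with vessels, nerves and fat. It secretes the lubricant of the joint, and in osteoarthritis it can become inflamed and release cytokines and chemokines. In bulk RNA a transcript's level depends both on how many cells carry it and on how much each cell holds, and these cannot be told apart here. The files name transcripts by Ensembl identifier with no gene names, and the rat gene table at hand held 0 Ensembl identifiers. The transcripts are therefore described by level, length and pattern, 2 of them by identifier and the others by their rank in mean CPM of contralateral vehicle knees. Their functions, and the cell types they mark, were not analysed here, and the labelled tissue could not be checked against its defining markers.

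Library totals ranged from 15614902 to 37063328 estimated counts. On the second principal component of log2(CPM + 1) 4 libraries lay apart, namely replicate 1 of both vehicle groups and replicate 4 of either inhibitor group. They scored 71.0 to 111.6 against -55.0 to -9.35 in the other 12. The scaling factors (TMM, a trimmed mean of log ratios between libraries) were 0.585 to 0.813 in contralateral vehicle knees and 0.914 to 1.23 elsewhere. Because a smaller factor raises CPM, scaling widened the gap between contralateral vehicle knees and the rest, and with CPM by library total 202 transcripts met the rule in place of 283.

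In contralateral vehicle knees the 283 transcripts held 35.4% ± 7.67 of all counts (SD, n = 4). Replicate 1 held 24.3% (95% exact binomial interval 24.25 to 24.28), replicate 2 held 41.4% (41.35 to 41.38), replicate 3 held 36.9% (36.89 to 36.93) and replicate 4 held 39.3% (39.24 to 39.27). All 4 libraries lay above every library of the other groups, and replicate 1 stood lowest.

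In MIA vehicle knees the share was 2.13% ± 2.75 (SD, n = 4), with 6.14% (6.130 to 6.146) in replicate 1, 0.353% (0.3510 to 0.3552) in replicate 2, 0.337% (0.3352 to 0.3394) in replicate 3 and 1.67% (1.668 to 1.677) in replicate 4. Contralateral inhibitor knees held 2.02% ± 1.88 (SD, n = 4), with 0.387% (0.3844 to 0.3895), 1.22% (1.218 to 1.227), 1.75% (1.747 to 1.757) and 4.70% (4.694 to 4.715) in replicates 1 to 4. MIA inhibitor knees held 1.61% ± 1.87 (SD, n = 4), with 0.372% (0.3697 to 0.3748), 0.351% (0.3485 to 0.3535), 1.402% (1.398 to 1.407) and 4.32% (4.314 to 4.327) in replicates 1 to 4. The 3 groups overlapped widely, and the highest library of each was one that stands apart on the second component. The intervals cover counting error only.

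**Figure D1:**
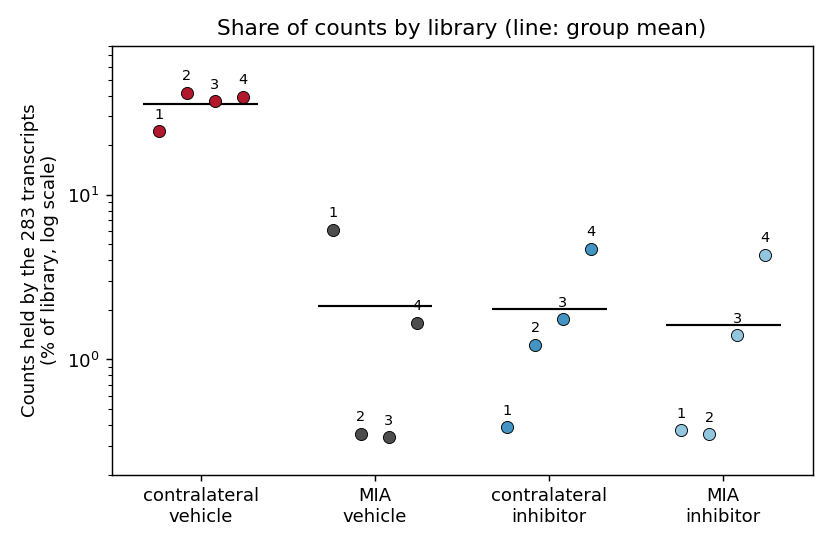
Share of a library's counts held by the 283 transcripts (y axis, percent, log scale) in each of the 16 libraries, by group (x axis). Numbers are replicates and lines are group means. The 4 contralateral vehicle libraries lie between 24.3% and 41.4%, and the other 12 between 0.337% and 6.14%.

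The means were also taken without the 4 libraries that lie apart, a choice made with the data in view. The share then averaged 39.2% for contralateral vehicle, 0.788% for MIA vehicle, 1.12% for contralateral inhibitor and 0.708% for MIA inhibitor. The distance between contralateral vehicle knees and the rest was thus larger without them, and the means of the other 3 groups were lower by more than 1.5 times.

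A few transcripts made up most of the share. In contralateral vehicle knees 11 of the 283 held 50% of the set's counts and 88 held 90%. Mean levels ran from 101.3 to 57353 CPM with a median of 331.9, and 72 transcripts averaged 1000 CPM or more, 12 of them 10000 CPM or more.

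ENSRNOT00000045718.5 (6013 bases) had the highest mean CPM. Its levels in contralateral vehicle knees were 32182.5, 99925, 57031.5 and 40271.5 CPM in replicates 1 to 4. The MIA vehicle libraries held 6349, 0.390, 1.80 and 1367 CPM in that order, the contralateral inhibitor libraries 17.8, 1369, 1547 and 3689 CPM, and the MIA inhibitor libraries 0.641, 0, 1489 and 3232 CPM. No library of the other groups came near the lowest contralateral vehicle library, and within each of those groups the levels spanned 2 or more orders of magnitude. The group means were 57353 ± 30210, 1929 ± 3016, 1656 ± 1518 and 1180 ± 1537 CPM (SD, n = 4 each), in the order given. None of its 15 estimates above 0 was a whole number, and estimates that are not whole arise where reads are divided between transcripts.

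ENSRNOT00000024084.7 (1453 bases) was second in CPM, and per length it ranked first. Its TPM values, which are scaled by transcript length, averaged 33058 in contralateral vehicle knees, against 8681 TPM for ENSRNOT00000045718.5, which ranked 10 on that scale. Levels of ENSRNOT00000024084.7 were 31850, 46969, 35300.5 and 60447 CPM in contralateral vehicle replicates 1 to 4. They were 6756, 4.46, 1.60 and 970.2 CPM in MIA vehicle, 25.4, 573.3, 763.6 and 5065 CPM in contralateral inhibitor, and 0.678, 1.74, 756.3 and 4933 CPM in MIA inhibitor knees. Replicate 1 of the MIA vehicle group and replicate 4 of both inhibitor groups were again the highest of their groups.

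**Figure D2:**
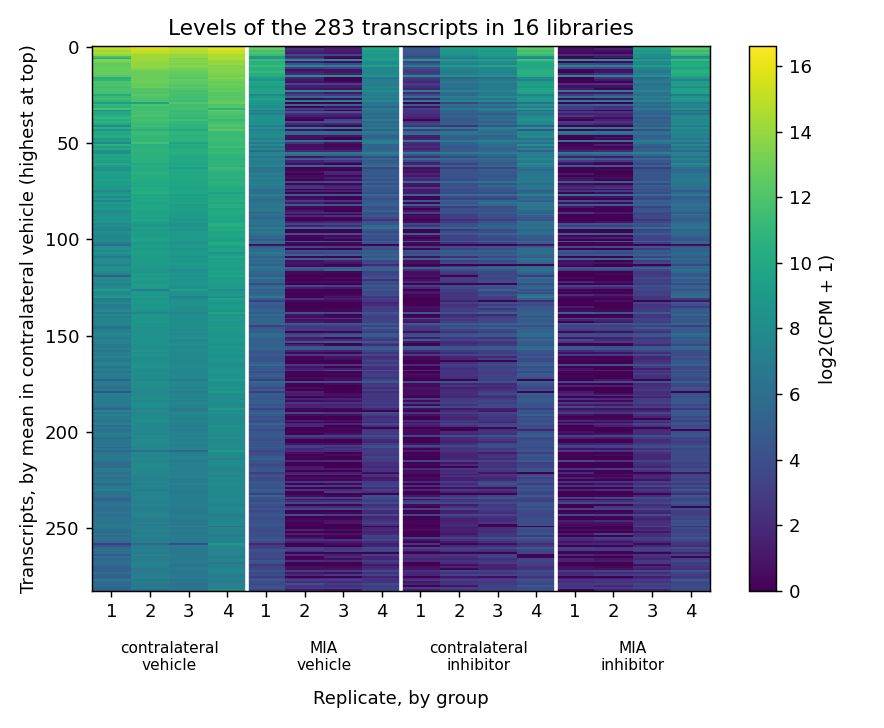
Levels of the 283 transcripts (rows, the highest mean in contralateral vehicle knees at the top) in the 16 libraries (columns, by group and replicate), as log2(CPM + 1). Rows are high in the 4 contralateral vehicle columns, intermediate in MIA vehicle replicate 1 and in replicate 4 of both inhibitor groups, and near 0 for most rows in MIA vehicle replicates 2 and 3, contralateral inhibitor replicate 1 and MIA inhibitor replicates 1 and 2.

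Both short and long transcripts met the rule, and single examples are given here. The fourth in CPM (1444 bases) was second per length at 21132 TPM, with 23203 to 36679 CPM in contralateral vehicle libraries, 0.987 to 4283 CPM in MIA vehicle, 22.8 to 4177 CPM in contralateral inhibitor and 0.109 to 3626 CPM in MIA inhibitor libraries. The sixth, of 81875 bases, had 3508, 19627, 16536 and 23165 CPM in contralateral vehicle replicates 1 to 4. In the other 12 libraries it lay between 0.0754 and 592.1 CPM. As a percentage of its contralateral vehicle mean, the fourth stood at 2.18% in contralateral inhibitor replicate 3 and 14.3% in replicate 4, while the sixth stood at 2.14% and 2.22%. The longest transcript of the set, and of all tested, had 107207 bases. It ranked 90 with 428.1, 792.6, 523.5 and 897.9 CPM in contralateral vehicle knees, and it was at no more than 45.9 CPM elsewhere.

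For 3 transcripts no count was found in 9 of the other 12 libraries. The most abundant of them, of rank 104 (3404 bases), had 59.3, 582.8, 461.4 and 1021 CPM in contralateral vehicle replicates 1 to 4. In the remaining 3, MIA vehicle replicate 1, contralateral inhibitor replicate 4 and MIA inhibitor replicate 4, it had 0.560, 0.772 and 0.413 CPM. The other 2, of ranks 233 (1361 bases) and 264 (1904 bases), were at 0 in the same 9 libraries, with 2.15 to 10.9 CPM in the same 3. A count of 0 allows up to 0.0836 to 0.113 CPM in those 9 libraries (3 counts per library, counting error only). The estimates for rank 104 were never whole, so an estimate of 0 may also come from how reads were divided, which was not tested.

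Most members kept some signal outside contralateral vehicle knees. Of the 283, 162 had a count in all 16 libraries, 121 had none in 1 or more of the other 12, and 26 had none in 5 or more. The libraries differed widely in this respect. No member was at 0 in MIA vehicle replicate 1, and 4 to 11 members were at 0 in each of MIA vehicle replicate 4, contralateral inhibitor replicates 2 to 4 and MIA inhibitor replicates 3 and 4. In MIA vehicle replicates 2 and 3, contralateral inhibitor replicate 1 and MIA inhibitor replicates 1 and 2, 52 to 78 members were at 0 and 135 to 156 were under 1 CPM.

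The residual level was then set against the contralateral vehicle mean of each transcript. In MIA vehicle replicate 1 the median transcript stood at 11.3% of that mean, with quartiles of 8.05% and 14.0%. It stood at 9.19% (quartiles 5.67% and 11.8%) in contralateral inhibitor replicate 4 and at 7.82% (5.21% and 10.7%) in MIA inhibitor replicate 4. Medians of 1.70% to 2.90% were found in MIA vehicle replicate 4, contralateral inhibitor replicates 2 and 3 and MIA inhibitor replicate 3, and medians of 0.108% to 0.164% in the remaining 5 libraries. The order of the transcripts by level was kept in the first 7 libraries, where Spearman's rank correlation with the contralateral vehicle mean was 0.766 to 0.906 across the 283 transcripts. In the remaining 5 it was 0.135 to 0.413. These correlations are across transcripts, which share libraries and are not independent, and they are given as a description.

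**Figure D3:**
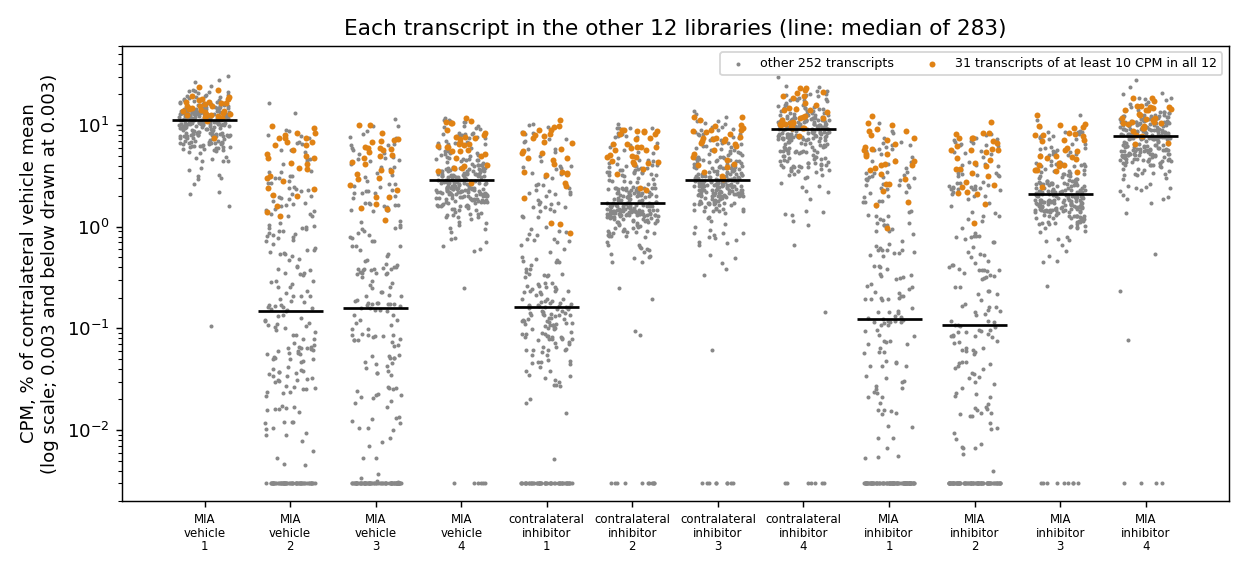
Level of each transcript in each of the other 12 libraries (x axis) as a percentage of its mean in contralateral vehicle knees (y axis, log scale, values of 0.003% and below drawn at 0.003%). Orange points are the 31 transcripts of at least 10 CPM in all 12 libraries, grey points the other 252, and lines the medians of all 283. Medians range from 0.108% in MIA inhibitor replicate 2 to 11.3% in MIA vehicle replicate 1. The orange points lie high in every library because they were picked for that.

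Members also differed in their lowest level. Among the 283, 31 had at least 10 CPM in each of the other 12 libraries, a threshold chosen with the data in view that marks no break, since the lowest level was 12.02 CPM for the member just inside it and 9.89 CPM for the one just outside. The eighth in rank (1545 bases), the most abundant of them, had 11535, 17321.5, 12170 and 19282 CPM in contralateral vehicle replicates 1 to 4, and between 297.9 and 3179 CPM elsewhere. The transcript of rank 16 (1269 bases) had 5384 to 8913 CPM in contralateral vehicle libraries and 240.9 to 1290 CPM elsewhere. Both lay above 200 CPM in every library of the study.

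That these 31 hold more of the set's counts where the set is low follows from how they were picked, and the values describe by how much. In the 5 libraries with the lowest shares they carried 75% to 80.8% of the set's counts, against 12.9% to 14.6% in contralateral vehicle libraries. The other 252 transcripts together held 20.7% to 36.0% of all counts in contralateral vehicle libraries. They held 0.0713% to 0.0718% in MIA vehicle replicates 2 and 3 and MIA inhibitor replicates 1 and 2, and 0.0966% in contralateral inhibitor replicate 1. In contralateral vehicle replicates both groups moved alike, with medians of 52.9% and 51.6% of the group mean in replicate 1 and of 140.3% and 141.7% in replicate 4.

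Within contralateral vehicle knees the members varied together. By TMM-scaled CPM replicate 1 was the lowest of the 4 libraries for 267 of the 283 transcripts, and replicate 4 was the highest for 232 and replicate 2 for 47. The place of replicate 4 depended on the scaling, since by library total it was highest for 177 and replicate 2 for 92, while replicate 1 stayed lowest for 264. The median SD was 40.7% of the mean for the members, against 33.7% for the other 1417 transcripts that averaged 100 CPM or more in these knees. The lowest and highest library were not counted for those 1417, so the order of replicates is not shown to be particular to the members.

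Some members had a wider spread or a partly different pattern. The seventh in rank (6031 bases) had 1147, 18255.5, 10020 and 31722.5 CPM in contralateral vehicle replicates 1 to 4. Relative to its mean this spread was wider than that of ENSRNOT00000045718.5, which was highest in replicate 2. In the other groups its highest library was MIA vehicle replicate 4 with 798.7 CPM, above the 465.5 CPM of replicate 1. The transcript of rank 30 (12044 bases) had 684.1 and 757.8 CPM in replicates 1 and 2 against 4676 and 7308 CPM in replicates 3 and 4. Neither of these 2 transcripts had a whole estimate in any library.

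Of the other 12 libraries, MIA vehicle replicate 1 was the highest for 197 members (69.6%), contralateral inhibitor replicate 4 for 64 (22.6%) and MIA inhibitor replicate 4 for 9 (3.18%). Together these 3 libraries held the highest value for 270 of the 283. Among the 1417 other transcripts of at least 100 CPM in contralateral vehicle knees the same libraries were highest for 11.7%, 37.8% and 17.0%. MIA vehicle replicate 1 thus came first for most members, while contralateral inhibitor replicate 4 came first most often among the other abundant transcripts.

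A set of 125 transcripts, defined with the data in view by a correlation of at least 0.9 with ENSRNOT00000045718.5 in the deviations from group means, shared 121 transcripts with the members. That is 96.8% of the 125 and 42.8% of the 283. ENSRNOT00000045718.5, itself a member, was the most variable of the transcripts with a mean over all 16 libraries of 1000 CPM or more. Both sets were drawn from the same libraries, so the overlap is a description and no independent support. Of all 26956 tested transcripts 283 were members.

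Length was not part of the rule. The members had a median of 2747 bases, with quartiles of 1589 and 4818, and the median over all tested transcripts was 2681 bases. Transcripts over 10000 bases made up 16 of the 283 (5.65%), 36 of the 1417 other abundant transcripts (2.54%) and 499 of all tested (1.85%). Whole-number estimates, which arise where a transcript's reads were not divided, made up 12.7% to 25.4% of the members' values in contralateral vehicle libraries, against 25.3% to 31.5% over all tested transcripts there. They made up 25.1% to 45.9% of the members' values above 0 in the other 12 libraries, and 137 members had no whole estimate in any library.

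In contralateral vehicle replicate 1 the shortfall was larger for longer members. In log2(CPM + 1), its deviation from the group mean had a median of -0.61 in the 71 shortest members (475 to 1589 bases) and of -1.13 in the 71 longest (4818 to 107207 bases), with a Spearman correlation of -0.382 between length and deviation across the 283. Other abundant transcripts in the same length ranges had medians of 0.13 (326 transcripts) and -0.23 (250 transcripts) there, with a correlation of -0.16. The correlation ran the other way in replicates 2 and 3, at 0.473 and 0.432 among members and 0.321 and 0.438 among other abundant transcripts. In replicate 4 it was 0.0284 and -0.107. Deviations from a group mean sum to 0 over the group, so the gradient cannot be assigned to replicate 1 alone. Among the 16 members over 10000 bases replicate 1 was the lowest for 15, with a median of 31.3% of the group mean, against 52.7% for the remaining members.

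A gradient with length was also seen in some of the other libraries, among members and other transcripts alike. In contralateral inhibitor replicate 4 the 71 shortest members had a median of 11.9% of the contralateral vehicle mean and the 71 longest 6.08%, and in MIA inhibitor replicate 4 these were 10.6% and 5.50%. In MIA vehicle replicate 1 they were 12.8% and 9.89%. MIA vehicle replicate 4 had 2.71% and 2.94%, and thus no lower level in the longest members. The Spearman correlation between length and deviation from the group mean was -0.221, -0.156 and -0.0586 among members in contralateral inhibitor replicate 4, MIA inhibitor replicate 4 and MIA vehicle replicate 1. Among the 1417 other abundant transcripts it was -0.344, -0.559 and -0.281, further from 0 in each of these libraries. On this measure the gradient there was thus not particular to the members. With the percentage of the contralateral vehicle mean in place of the deviation, the correlation across members was -0.483, -0.464 and -0.243. That measure was not taken for the other transcripts. The 3 libraries are among those that stand apart on the second component, and the part that RNA quality or library preparation played was not tested. By deviation from the group mean, the gradient ran the other way in some further libraries. In MIA inhibitor replicate 3 the correlation was 0.167 among members and 0.477 among other abundant transcripts. In MIA vehicle replicate 4 these were 0.0619 and 0.423.

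**Figure D4:**
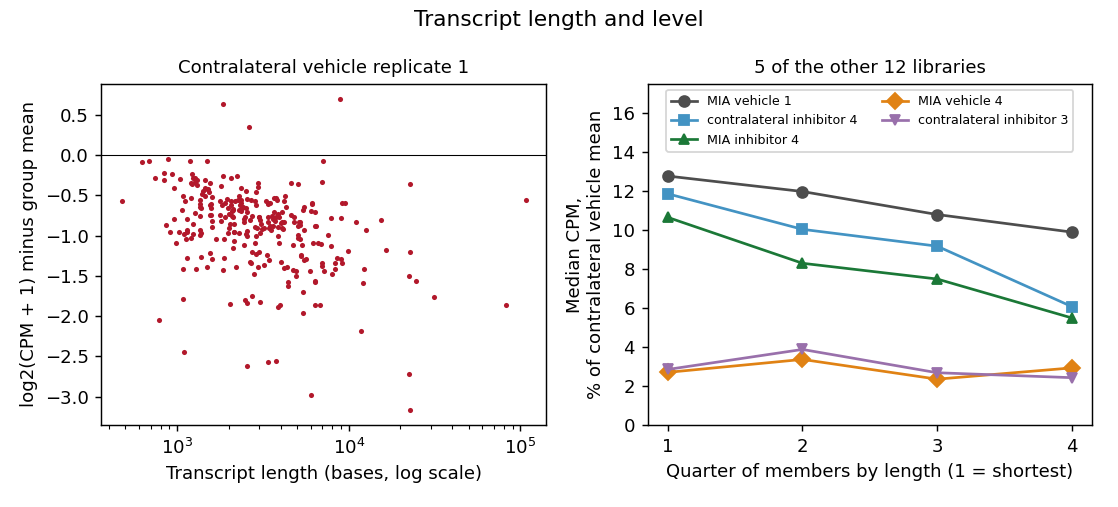
Left, deviation of each of the 283 transcripts from its group mean in contralateral vehicle replicate 1 (y axis, log2(CPM + 1)) against transcript length (x axis, bases, log scale). Right, median level as a percentage of the contralateral vehicle mean (y axis) for 4 classes of members by length (x axis, 1 the shortest, 70 or 71 transcripts each) in 5 of the other 12 libraries. Medians fall from 11.9% to 6.08% in contralateral inhibitor replicate 4 and from 10.6% to 5.50% in MIA inhibitor replicate 4.

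The comparisons that include contralateral vehicle knees used the values that chose the set. In MIA against contralateral knees of vehicle rats, the members had a median log2 change of -4.71, and 159 of 283 were called lower (edgeR's quasi-likelihood test, adjusted p under 0.05), where 13.2% of all tested transcripts were called lower and 29.2% in either direction. In inhibitor against vehicle in contralateral knees the median was -4.78 and 152 were called lower, where 11.8% of all tested transcripts were, and 23.9% in either direction. These comparisons share the 4 contralateral vehicle libraries and nothing is read from either count. By the rule, all 283 have groups that do not overlap. The median standard error for members was 1.70 and 1.72 on the log2 scale.

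The comparisons that leave contralateral vehicle knees out were tested. The rule sets no order among the other 3 groups, but it caps the level of all of them. Some members passed the filter on low counts only with the contralateral vehicle libraries included, since 275 of the 283 passed it in the 8 inhibitor libraries alone and 277 in the 8 MIA libraries alone. In rats given inhibitor, the question was whether members differed between MIA and saline knees. None of the 283 was called, where 1 of 26956 transcripts (0.00371%) was called (edgeR's quasi-likelihood test, Benjamini-Hochberg over all tested transcripts, n = 4 against 4), and the smallest adjusted p of a member was 0.828. Limma-voom called 0 members as well, where it called 0% of all tested transcripts. An unadjusted p under 0.05 was found for 1 member (0.353%), against 5.38% of all tested transcripts. The median log2 change was -0.33 with a median standard error of 1.5, beside a median of 0.0049 over all tested transcripts with a median standard error of 0.457, and 226 members had an estimate below 0. No member had groups that did not overlap, against 2.57% of all tested transcripts with all MIA libraries higher and 1.44% with all lower.

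The estimate for single members was wide. ENSRNOT00000045718.5 had a log2 change of -0.49 ± 2.32 (SE) and ENSRNOT00000024084.7 of -0.18 ± 2.16 (SE) between MIA and contralateral knees with inhibitor, each with an edgeR adjusted p of 1. Limma-voom gave -5.07 and -3.49 for these 2 transcripts and -0.64 for the median, so the size depended on the tool. Single libraries set the sign of the edgeR median, which was 0.61 when contralateral inhibitor replicate 4 was left out and -1.72 when MIA inhibitor replicate 4 was. Each of these fits keeps the same-numbered knee of the one it drops. The sample number was also used as a replicate block in both treatments, which pairs the 2 knees only if a number stands for a rat. The labels do not state this. With the block the changes were -2.98 and -3.02 for these 2 transcripts and -0.91 for the median, and 0 members were called by edgeR, where 0% of all transcripts were. When the 4 libraries that lie apart were left out the median was -0.81 and 0 members were called, where 0.331% of all transcripts were. With the block as well the changes of the 2 transcripts were -4.98 and -4.87, the median was -1.20 and 0 members were called, where 0.0109% were. Changes of 4-fold in a typical member lay within 2 standard errors and were not detectable with these libraries. For the 31 members of at least 10 CPM throughout the median standard error was 0.50 and the changes ran from -0.57 to 0.29, and none was called either.

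The member with an unadjusted p under 0.05 was that of rank 114 (2809 bases). It was listed at 0 in all 4 contralateral inhibitor libraries and had 0.452, 0, 0 and 10.8 CPM in MIA inhibitor replicates 1 to 4, so its level in MIA knees came almost wholly from replicate 4. In vehicle rats it had 148.3, 568.4, 493.4 and 703.1 CPM in contralateral and 33.5, 0.502, 0 and 2.77 CPM in MIA knees. DESeq2, which tested 280 of the 283 members, called this transcript (Wald test, adjusted p = 3.42e-16, n = 4 against 4) and no other member. It called 1.26% of the transcripts it tested. The log2 change of 23.4 ± 2.58 (SE) for rank 114 is against a group at 0 throughout and gives no usable size. This transcript passed the filter on low counts only because vehicle libraries were included. Nothing is therefore read from its call or from its unadjusted p.

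In MIA knees, inhibitor was compared with vehicle. Again 0 of 283 members were called by edgeR, where 0 of 26956 (0%) were called, with a smallest adjusted p among members of 0.587. An unadjusted p under 0.05 was found for 0 members, against 8.66% of all tested transcripts. DESeq2, which tested 280 of the members, and limma-voom also called 0 members, where they called 2.97% and 0.0594% of all. The median log2 change of the members was -0.45 with a median standard error of 1.49, beside a median of -0.00020 over all tested transcripts, and 240 had an estimate below 0. With limma-voom the median of the members was -0.048, beside -0.024 over all, and 151 of 283 were below 0. No member had groups that did not overlap, against 3.48% of all tested transcripts with all inhibitor libraries higher and 4% with all lower.

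When the 8 libraries of these groups were fitted alone 0 of the 277 members in the fit were called, where 0.0121% of all transcripts were, and without the 4 libraries that lie apart 0 members, where 1.34% were. The direction here too came from single libraries. Without MIA vehicle replicate 1 the median was 1.10, and 28 members had an estimate below 0. Without MIA inhibitor replicate 4 the median was -1.99 and 272 members were below 0. ENSRNOT00000045718.5 had a log2 change of -0.71 ± 2.32 (SE) and ENSRNOT00000024084.7 of -0.44 ± 2.17 (SE) (edgeR adjusted p = 1 for each).

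**Figure D5:**
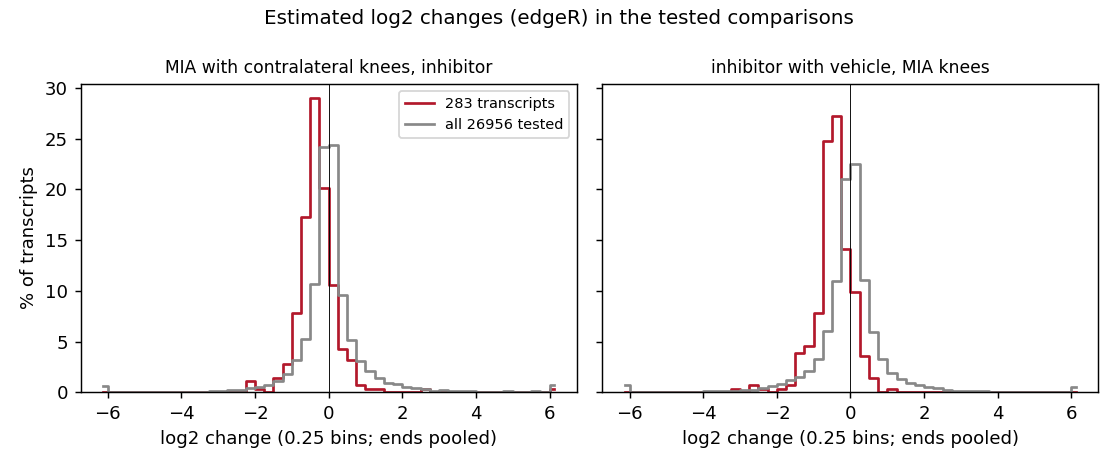
Distribution of edgeR's estimated log2 changes (x axis, bins of 0.25 with the ends pooled) for the 283 members (red) and all 26956 tested transcripts (grey), as a percentage of each set (y axis). Left, MIA against contralateral knees with inhibitor; right, inhibitor against vehicle in MIA knees. The members centre at -0.33 and -0.45 and all transcripts near 0, and none of the members was called.

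Knees that share a sample number in the inhibitor groups held similar shares of the set in 3 of 4 pairs. The share was lower in the MIA knee in 4 of 4, a direction that was not tested. The labels do not tie a number to a rat. Contralateral and MIA knees held 0.387% and 0.372% for number 1, 1.75% and 1.402% for number 3, and 4.70% and 4.32% for number 4, while for number 2 they held 1.22% and 0.351%. With vehicle the corresponding shares were 24.3% and 6.14%, 41.4% and 0.353%, 36.9% and 0.337%, and 39.3% and 1.67%, and number 1 combined the lowest contralateral with the highest MIA share.

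When the same rule was applied with each other group in the place of contralateral vehicle, 8 transcripts met it for MIA vehicle, 1 for contralateral inhibitor and 0 for MIA inhibitor knees. The reverse pattern, at least 100 CPM in each of the other groups and at most 1/8 of that in contralateral vehicle knees, was met by 0 transcripts. Of all tested transcripts, 1700 averaged 100 CPM or more in contralateral vehicle knees, of which 290 met the condition on fold and 283 that on overlap as well.

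Values near the thresholds changed gradually. The member of lowest mean had 101.3 CPM, and the highest transcript that failed only on abundance had 97.7 CPM. The smallest ratio of the contralateral vehicle mean to the highest other mean was 8.01 among the members, and the largest among transcripts that failed only on fold was 7.98. The member closest to overlap had 28.8 CPM in its lowest contralateral vehicle library and 28.3 CPM in the highest of the other 12. Of the 7 transcripts that failed only on overlap, the closest had 1.15 and 1.76 CPM.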

How the data were processed

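Synovial RNA of rat knees was sequenced as 16 directional libraries on an Illumina NextSeq 550, per the labels' protocols. Salmon 1.4.0, fastp 0.20.1, DESeq2 1.30.0 and build mRatBN7.2 are listed in the submitters' processing notes. Each deposited file gives, per the file headers, expected counts of reads for each transcript, which carry no scaling, and TPM, which corrects them for transcript length.

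Counts were rounded, filtered by filterByExpr with the 4 groups and scaled by TMM. Tests used edgeR 4.0.16 (glmQLFit, robust) with limma 3.58.1 in R 4.3.3, with 1 mean per group over 16 libraries, two-sided. P-values were adjusted over all tested transcripts by Benjamini-Hochberg at 0.05. DESeq2 1.42.0, limma-voom and other settings were alternatives. A count of whole values used a tolerance of 1e-06.

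The members, the lists and the rules were chosen with earlier results of these data known. The 2 members with the highest mean CPM in contralateral vehicle knees are named by identifier. Same-numbered knees in the inhibitor groups had correlated deviations from their group means (0.227 to 0.617), and those numbers were taken to pair the knees. Different numbers there gave -0.424 to 0.249, so the ranges overlap and the pairing is an assumption. In the vehicle groups same numbers gave 0.0117 to 0.217 and different numbers -0.216 to 0.143. MIA vehicle and MIA inhibitor knees share only a number (-0.31 to 0.375), yet MIA vehicle replicate 1 and MIA inhibitor replicate 4 gave 0.611.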

Additional observations from a re-analysis of the deposited data

Results flagged for a closer look

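In 52 checks of single libraries (12 members and the summed share, each in 4 groups), 18 had 1 library whose gap to the nearest other exceeded, as a part of the group's range, the 95% critical value of Dixon's test for 4 samples. The 12 members were those of ranks 1 to 10, the longest, and the one with the largest ratio of contralateral vehicle mean to highest other mean (rank 104). Chance marks about 1 in 20 groups, and these checks share libraries, so they are not independent. All 18 concern MIA vehicle replicate 1, contralateral inhibitor replicate 4 or MIA inhibitor replicate 4, each the highest of its group, and no contralateral vehicle library was among them. The summed share was not among them either.

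In MIA vehicle replicate 1 the gap was 0.857 of the range for ENSRNOT00000024084.7, and 0.835, 0.872, 0.836, 0.867 and 0.835 for the members of ranks 3, 4, 5, 8 and 10. In contralateral inhibitor replicate 4 it was 0.854 for ENSRNOT00000024084.7, and 0.831, 0.852 and 0.961 for ranks 3, 4 and 8. In MIA inhibitor replicate 4 it was 0.847 for ENSRNOT00000024084.7, and 0.863, 0.844, 0.891 and 0.858 for ranks 4, 5, 8 and 10. For the member of rank 104 the gap was 1, the whole range, in all 3 libraries, since the others of each group were at 0. With the others at 0 the gap is 1 whatever the remaining value. The member was picked by a ratio that favours values near 0, so nothing is read from these 3 flags.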

How the results depend on the processing

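No member was called in either tested comparison under any edgeR alternative run, including DESeq2 size factors, no filter on low counts, the 8 libraries fitted alone (275 and 277 members in the fit) and each library left out. The exception among other tools was DESeq2, which called 1 member between MIA and contralateral knees with inhibitor. That member, of rank 114, was at 0 in every contralateral inhibitor library, and nothing is read from its call. With the sample number as a replicate block 0 members were called in both comparisons. The median log2 change was -0.91 between MIA and contralateral knees with inhibitor, where the number was assumed to pair the knees. It was -0.75 between inhibitor and vehicle in MIA knees. There the number joins knees of differently treated rats, so that fit is not a paired one. The block changed no call among the members. Over all transcripts, the calls between MIA and contralateral knees with inhibitor went from 1 to 0. Without the 4 libraries that lie apart, chosen with the data in view, 0 members were called in both, where 91 and 369 transcripts (0.331% and 1.34%) were called in all, and with the block as well 0 members and 3 transcripts (0.0109%) were called in the first.

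The number of members ranged from 273 to 335 with a library left out, with the lowest value without contralateral vehicle replicate 4 and the highest without replicate 1 of that group. It was 130 with TPM in place of CPM. The share of TPM in contralateral vehicle knees was 27.6%, against 35.4% of counts, and the mean share of counts there was 33.5% to 39.2% with a library left out. For MIA vehicle knees it was 0.788% (without replicate 1) to 2.72%. For contralateral inhibitor knees the range was 1.12% (without replicate 4) to 2.56%, and for MIA inhibitor knees 0.708% (without replicate 4) to 2.03%.

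The edgeR estimates for single transcripts moved widely, and limma-voom gave -5.07 and -3.49 for the 2 named transcripts between MIA and contralateral knees with inhibitor. With a library left out, the log2 change between MIA and contralateral knees with inhibitor ran from -1.74 to 0.27 for ENSRNOT00000045718.5 and from -2.67 to 1.65 for ENSRNOT00000024084.7. Between inhibitor and vehicle in MIA knees it ran from -1.96 to 1.36 and from -2.94 to 2.12. For ENSRNOT00000045718.5 the latter was 0.11 without the 4 libraries that lie apart, and the cause was not tested. A count of 0 allows up to 0.0836 to 0.21 CPM by library, counting error only, and lower levels were not detectable.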
